A study of Homo sapiens with 30 samples.

Results

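The comparison described here is that of C4-2-tet-shRB cells after 3 days of doxycycline with the same cells without it, both without added androgen. C4-2-tet-shRB is a human prostate cancer cell line in which doxycycline switches on a short hairpin RNA that targets RB1. The members were chosen by their labels and not by any measured value: they are 4 of the 30 deposited columns, which are 2 of the 22 libraries in 14 groups once the lanes of a library are summed. The vehicle group was untreated, and the doxycycline group received 0.05 µg/ml for 3 days. Both grew in RPMI 1640 with 8% charcoal-stripped serum, which is low in steroid hormones, and 2% regular fetal bovine serum, which is not stripped. The same table held libraries with 10 nM DHT (dihydrotestosterone, the potent androgen) for 24 h, without and with 3 days of doxycycline, and libraries with 30 days of doxycycline, without and with 24 h of DHT. A second table held the same line in 5% charcoal-stripped serum with DMSO, without or with 0.05 µg/ml doxycycline for 3 days, as 2 libraries each. Its other 4 libraries received 10 µM GSK2879552, 2 of them with doxycycline as well. GSK2879552 inhibits LSD1, a histone demethylase encoded by KDM1A. Every doxycycline library also induced the hairpin, and no group had doxycycline with a control hairpin. Loss of RB1, the drug and induction of the hairpin therefore cannot be told apart.

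RB1 encodes the retinoblastoma protein, which binds E2F transcription factors and holds back the genes needed for S phase. Phosphorylation of the protein by cyclin-dependent kinases releases E2F, and its loss removes that brake. RB1 is often lost in advanced prostate cancer.

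The vehicle library held 15030320 counts and the 3-day doxycycline library 16856486. The 12 other C4-2 libraries held 14515932 to 22326960. The 2 lanes of a library differed by no more than counting error and were summed, so each side of the comparison is a single library with no replicate. The edgeR test therefore takes its spread from the replicated groups of the second table, on the assumption that the lone libraries vary like those. That assumption spans another library kit (total RNA here, mRNA there) and another medium, and the labels do not say that replicates were separate cultures. The luminal marker KLK3, which encodes prostate-specific antigen, was abundant, at 3614 and 3551 normalised CPM (counts relative to library size, scaled by TMM) without and with doxycycline. Of 6 basal, 9 stromal and 9 immune or endothelial markers in the table, 5, 7 and 8 had fewer than 20 counts in both libraries. Their summed counts were 1328 and 1595, 186 and 216, and 68 and 90 without and with doxycycline, and nearly all basal counts were those of ITGA6, an integrin (1327 and 1589).

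RB1 fell in the doxycycline library. Its normalised level was 47.6 CPM in the vehicle library (769 counts) and 7.90 CPM after 3 days of doxycycline (140 counts). The lanes gave 371 and 398 counts for vehicle and 76 and 64 for doxycycline. The log2 change was −2.59 ± 0.23 (SE, edgeR quasi-likelihood test, adjusted p = 4.01e-06), a 6.02-fold reduction. The ratio of these 2 libraries had an exact Clopper-Pearson 95% interval of −2.86 to −2.33 on the log2 scale, which covers counting error only. In the other libraries RB1 was 51.1 CPM with DHT and 10.0 CPM with DHT and doxycycline. It was 6.26 CPM after 30 days, 23.3 and 26.0 CPM with DMSO, and 4.63 and 6.27 CPM with DMSO and doxycycline. All 5 doxycycline libraries among these thus lay below all 4 without it. The targeted transcript was reduced and not absent.

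Few other genes passed the test. Of 19898 genes tested across the 14 C4-2 libraries, 9 were called at an adjusted p under 0.05, 7 higher (0.0352%) and 2 lower (0.0101%), together 0.0452% of all genes. The rises described here are MIR30A and 5 rows that share large swings across the libraries of this table, described below. The falls were RB1 and STAMBP. By the ratio of these 2 libraries alone, 67 genes were more than 1.5-fold higher (0.539%) and 18 more than 1.5-fold lower (0.145%), together 0.684% of the 12425 genes whose summed count in both libraries reached 100. That count has no test. It was 48 higher and 29 lower with DESeq2 size factors, 50 and 29 with total counts, 50 and 30 without lane 1, and 39 and 22 without lane 2. The smallest called change was 0.77 in size on the log2 scale, and the median SE was 0.20 over all genes and 0.12 over the 6408 genes with at least 30 CPM. Changes of the size described below for most cell-cycle genes are thus smaller than any change called here.

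**Figure D1:**
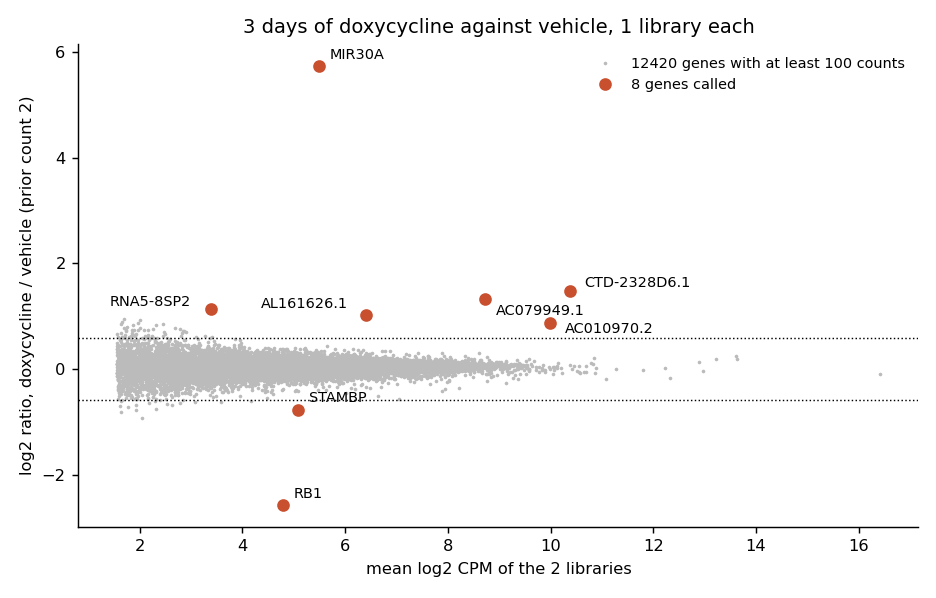
Log2 ratio of the 3-day doxycycline library to the vehicle library (y axis, prior count of 2) against the mean log2 CPM of the 2 libraries (x axis) for 12420 genes with a summed count of 100 or more. Dotted lines mark a 1.5-fold ratio either way, and 8 called genes are labelled. Most genes lie between the lines, with MIR30A at the top and RB1 at the bottom.

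MIR30A had the largest called rise. MIR30A is the gene of a microRNA hairpin that is cut into a 5p and a 3p arm, and bases 2 to 8 of an arm form the seed that pairs with target messages. Its RefSeq sequences (build GRCh38.p14) are shown because this row leads the comparison. Capitals mark both arms in the hairpin, and the seed in each arm. Both arms matched by name.
MIR30A hairpin, chr6:71403551-71403621 (- strand): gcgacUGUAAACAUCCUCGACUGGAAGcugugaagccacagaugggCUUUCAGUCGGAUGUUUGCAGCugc
hsa-miR-30a-5p, chr6:71403595-71403616 (- strand): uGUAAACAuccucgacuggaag
hsa-miR-30a-3p, chr6:71403554-71403575 (- strand): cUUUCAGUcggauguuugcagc
MIR30A had 25 counts (1.55 CPM) in the vehicle library and 1568 counts (88.5 CPM) after 3 days of doxycycline. The log2 change was 5.83 ± 0.19 (edgeR adjusted p = 2.67e-13), and the ratio of 57.2 had a 95% interval of 5.27 to 6.47 on the log2 scale. The 5 doxycycline libraries without inhibitor or 30-day DHT ranged from 78.9 to 116 CPM and the 4 without doxycycline from 1.55 to 2.47 CPM, with no overlap. The 5 other MIR30 rows (MIR30B, MIR30C1, MIR30C2, MIR30D and MIR30E), picked after their values were seen, had at most 1 count in any library of this table. LINC00472, a host gene of this locus that was picked in the same way, had 9 and 28 counts. These libraries count RNA over the annotated hairpin and do not separate the arms, so no level of a mature microRNA was measured. Whether the counted RNA came from this gene or from the induced hairpin construct was not tested.

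**Figure D2:**
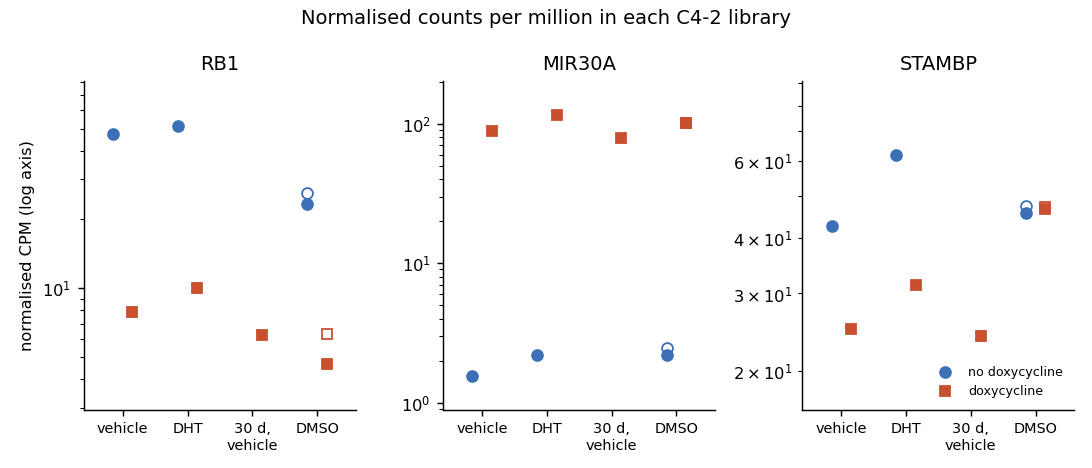
Normalised CPM (log axis) of RB1, MIR30A and STAMBP in each of 9 C4-2 libraries, without (circles) and with (squares) doxycycline. Each point is 1 library, open symbols are the second library of a group, and the 30-day library shares the vehicle control of the 3-day library. RB1 and MIR30A separate the libraries by doxycycline in both experiments, whereas STAMBP separates them at vehicle, DHT and 30 days and not at DMSO.

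The 5 other rises described here were CTD-2328D6.1, AC079949.1, AL161626.1, AC010970.2 and RNA5-8SP2, the last being a 5.8S ribosomal RNA pseudogene by its name. CTD-2328D6.1 went from 11359 to 34818 counts, a log2 change of 1.48 ± 0.11 (edgeR adjusted p = 3.54e-07). The others had changes of 1.32, 1.01, 0.88 and 1.14. RNA5-8SP2 was not called with DESeq2 (adjusted p = 1), without lane 1 (edgeR adjusted p = 0.241) or lane 2 (0.514) of the first table, or without the first or second DMSO library (0.113 and 0.114). These rows and RNA5-8SP6, grouped after their values were seen, together held 0.186% of counts in the vehicle library and 0.424% in the doxycycline library. Their share was 0.581% with DHT, 0.409% with DHT and doxycycline, 0.235% after 30 days, and 0.457% with DHT after 30 days. It was 0.0174% to 0.0278% in the mRNA libraries of the second table. Among the libraries without DHT the share was higher with doxycycline, and among those with DHT it was lower with doxycycline. The vehicle library had the lowest of the 6. With DHT, CTD-2328D6.1 and AC010970.2 fell with doxycycline (−0.59 and −0.53, edgeR adjusted p = 0.0214 and 0.0453), while AC079949.1, AL161626.1 and RNA5-8SP2 were at −0.45, −0.42 and 0.19 and were not called. CTD-2328D6.1, AC010970.2, AC079949.1 and AL161626.1 were the 4 genes called (0.0201%) in the test of the difference between the DHT and vehicle responses, where an unadjusted p under 0.05 was reached by 503 genes upward (2.53%) and 461 downward (2.32%). Without the 6 rows, an alternative chosen after seeing the data, the vehicle comparison had 2 genes called higher, MIR30A among them, and that difference had none. Whether these rows reflect how ribosomal RNA was removed was not tested.

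STAMBP, a deubiquitinating enzyme of the endosome, fell. It had 689 counts (42.6 CPM) in the vehicle library and 442 counts (24.9 CPM) after doxycycline. The log2 change was −0.77 ± 0.12 (edgeR adjusted p = 0.0125), and the 2-library interval was −0.95 to −0.60. Levels were 62.0 CPM with DHT, 31.4 CPM with DHT and doxycycline, 24.0 CPM after 30 days, and 29.2 CPM with DHT after 30 days. With DMSO they were 45.7 and 47.3 CPM, and with DMSO and doxycycline 46.7 and 47.1 CPM. The 4 doxycycline libraries of the first table thus lay below its 2 without the drug, and the 2 with DMSO and doxycycline lay within the levels of the 2 with DMSO alone. The difference between the experiments passed its own test (−0.78, edgeR adjusted p = 0.0246). Without lane 1 of the first table, which leaves lane 2 alone, STAMBP was not called (−0.71, adjusted p = 0.177) and RB1 was the only fall. The difference was also not called without that lane or without any 1 of 6 libraries of the second table (those with DMSO, with DMSO and doxycycline, and with GSK2879552 and doxycycline), at adjusted p-values of 0.0547 to 0.155.

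SLC11A2, SLC39A14 and ATP6V1G1 had lower values without being called. Other large uncalled falls among genes with at least 500 counts were MT-ATP6 (−0.61), MT-CO2 (−0.56), S1PR3 (−0.54), PDIK1L (−0.52), ABAT (−0.48), RWDD2B (−0.44) and RP11-20I20.4 (−0.43). The largest uncalled rises among such genes were CTC-308K20.3 (0.56), PHTF1 (0.49), KIAA1161 (0.46), WDR76 (0.44) and KCNS3 (0.43). SLC11A2, the divalent metal transporter of endosomes, had 1906 and 1466 counts (log2 change −0.51 ± 0.11, edgeR adjusted p = 0.232). SLC39A14, a zinc and iron importer, had 4409 and 3604 counts (−0.42 ± 0.10). ATP6V1G1, a subunit of the proton pump that acidifies lysosomes, had 1214 and 964 counts (−0.46 ± 0.13). All 3 were also lower with doxycycline in the DHT pair, at −0.67, −0.51 and −0.60, where edgeR called each (adjusted p = 0.0119, 0.025 and 0.0291). With DMSO, SLC11A2 was at −0.17, ATP6V1G1 at 0.19 and SLC39A14 at 0.40, and for SLC39A14 that difference between experiments was called (−0.82, edgeR adjusted p = 0.00355). The list of 23 tested iron and lysosomal acidification genes had a median of 0.04 in the vehicle pair, beside 0.03 for all genes, with 15 above and 8 below 0 and 2 lower at an unadjusted p under 0.05. The number of falls depends on which libraries give the spread: without the groups given GSK2879552 it was 8 in place of 2, and without either replicate of GSK2879552 alone it was 9. In each of these 3 fits the falls included SLC11A2, SLC39A14, ATP6V1G1, the zinc transporter SLC30A4 (−0.38), the methyltransferase SETD7 (−0.36) and the mitochondrial MT-CO2 (−0.56).

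Genes of S phase stood slightly higher as groups, although none was called on its own. In each list below, the count of members called in the vehicle pair was 0, apart from RB1 in its own family. The comparison is with all 19898 genes, whose median log2 change was 0.03. Of all genes, 57.4% were above 0 and 2.15% were higher at an unadjusted p under 0.05. The lists were chosen with earlier results of these data known, and their counts are descriptions. Of 26 origin licensing and firing genes, which load and start the replicative helicase, 24 were above 0 with a median of 0.22, and 10 were higher at an unadjusted p under 0.05. Of 44 genes in the replication fork list, 44 were above 0 with a median of 0.20, and 12 reached an unadjusted p under 0.05. That list holds genes that copy DNA and assemble chromatin behind the fork, and also others such as DTL, MSH6 and WDR76. Of 21 nucleotide synthesis genes, 20 were above 0 with a median of 0.11. The highest values of these lists were those of WDR76 (0.44), CDT1 (0.37) and MCM6 (0.36).

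The minichromosome maintenance genes, whose products form the helicase ring, show the scale of these values. MCM3 had 3445 counts in the vehicle library and 4671 after doxycycline, or 213 and 264 CPM (log2 change 0.31 ± 0.09). MCM2 had 5698 and 7651 counts, or 352 and 432 CPM (0.29 ± 0.09). MCM6 had 1077 and 1512 counts, or 66.6 and 85.3 CPM (0.36 ± 0.11). The 3 values are alike in size, and the adjusted p was 1 for each. CDT1, the licensing factor, was at 0.37, FEN1, the flap nuclease of Okazaki fragment processing, at 0.29, and PCNA, the sliding clamp, at 0.22. Among nucleotide genes, DUT, which removes dUTP, had 1238 and 1668 counts (0.30 ± 0.11), and TYMS, thymidylate synthase, had 304 and 413 (0.31 ± 0.15).

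The second experiment shares no library with this one, and the mean of both doxycycline responses rests on 6 libraries in place of 2. In it 190 of 19898 genes were called (0.955%), 133 higher (0.668%) and 57 lower (0.286%). Of the 26 licensing genes 9 rose, of the 44 fork genes 12 rose and of the 21 nucleotide genes 2 rose, and no member of these lists fell. MCM3 had a mean log2 change of 0.39 ± 0.06 (edgeR adjusted p = 0.00175), MCM2 of 0.36 ± 0.05 (adjusted p = 0.0027) and MCM6 of 0.37 ± 0.07 (adjusted p = 0.00888). CDC7, the kinase that fires origins, rose by 0.40 and DTL, which targets CDT1 for degradation, by 0.43. The 2 experiments contribute unequally: of the 190 genes, 181 were also called with DMSO alone, and 63 had an unadjusted p under 0.05 in the vehicle pair. Of all genes, 7.08% were called with DMSO, and 2.15% upward and 1.29% downward reached that unadjusted limit in the vehicle pair. Of the 190, 171 had the same sign in both, and 28 were called in the difference between them. The 190 were picked by the mean of both responses, which by itself favours equal signs and low p-values in each. These counts therefore do not measure how well the 2 experiments match. The number of calls depended on single libraries: without any 1 of the 4 libraries with DMSO, 21 to 45 genes were higher and 14 to 17 lower, and without either library of GSK2879552 alone, 792 and 795 were higher and 390 and 391 lower. Without either library of GSK2879552 with doxycycline, 34 and 37 were lower. MCM2 and MCM3 were called in all of these fits. CDC7 was not called without any 1 of the 4 libraries with DMSO (adjusted p of 0.0543 to 0.129). MCM6 was not called without DMSO replicate 1 or DMSO and doxycycline replicate 2 (0.0802 and 0.0595), nor DTL without DMSO replicate 1 (0.0903).

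Promoters of 4 licensing genes are shown, since these genes rose in the mean of both experiments and E2F binds near the start of many such genes. They were chosen as the replication, repair and E2F list genes with a motif, a single RefSeq promoter and the smallest p in that mean. Each runs from 250 bases before to 50 bases after the start in RefSeq (build GRCh38.p14). Capitals mark TTTCCCGC, TTTGGCGC, TTTCGCGC or TTTGCCGC on either strand. Matches on both strands overlap where a motif runs into the complement of itself or of another motif. A single stretch of capitals can then hold 2 matches.
MCM3, chr6:52284693-52284992 (- strand): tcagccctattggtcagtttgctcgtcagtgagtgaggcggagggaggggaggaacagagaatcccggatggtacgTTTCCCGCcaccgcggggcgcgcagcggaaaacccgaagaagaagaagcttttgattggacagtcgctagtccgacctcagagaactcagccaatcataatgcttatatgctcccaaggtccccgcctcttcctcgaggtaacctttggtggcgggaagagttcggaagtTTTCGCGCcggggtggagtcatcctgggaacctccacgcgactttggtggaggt
MCM2, chr3:127598161-127598460 (+ strand): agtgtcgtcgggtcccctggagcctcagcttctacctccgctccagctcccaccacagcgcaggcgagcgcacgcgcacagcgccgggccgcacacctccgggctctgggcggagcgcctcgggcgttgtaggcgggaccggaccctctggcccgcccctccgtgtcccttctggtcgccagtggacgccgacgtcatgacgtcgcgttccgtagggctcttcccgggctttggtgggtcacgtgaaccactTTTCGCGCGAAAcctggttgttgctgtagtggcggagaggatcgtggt
CDC6, chr17:40287629-40287928 (+ strand): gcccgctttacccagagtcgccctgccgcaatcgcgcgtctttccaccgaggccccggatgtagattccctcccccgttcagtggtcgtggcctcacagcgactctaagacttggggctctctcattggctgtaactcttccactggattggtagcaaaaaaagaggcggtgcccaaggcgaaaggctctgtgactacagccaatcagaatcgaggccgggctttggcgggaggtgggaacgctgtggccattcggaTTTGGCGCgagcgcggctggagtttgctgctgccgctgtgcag
MCM6, chr2:135876394-135876693 (- strand): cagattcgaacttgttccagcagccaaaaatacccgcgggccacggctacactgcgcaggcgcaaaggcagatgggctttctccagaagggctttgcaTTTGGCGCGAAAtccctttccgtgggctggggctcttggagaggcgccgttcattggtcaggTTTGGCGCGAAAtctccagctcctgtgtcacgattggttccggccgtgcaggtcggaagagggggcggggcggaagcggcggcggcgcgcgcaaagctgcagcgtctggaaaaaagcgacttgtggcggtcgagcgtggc
At least 1 of these motifs was found for 13 of 22 licensing genes with a promoter in the table (59.1%) and for 18 of 35 fork genes (51.4%). The share was 6.4% of 10651 tested genes with a promoter and 4.0% over the symbols of all 35116 promoters. In 48 G2/M genes it was 8.3%. There TTTGAA, the core of the element known from late cell-cycle promoters, was found for 34 genes (70.8%), against 13.6% of tested genes and 18.2% over all promoters. These lists were chosen with earlier results of these data known, so their shares are descriptions and may not be independent of the doxycycline response. The following counts cover only genes with a promoter in the table. The motifs marked above were found for 19 of 96 genes called higher in the mean of both experiments (19.8%). They were found for 5 of 44 called lower in that mean (11.4%). Among genes called higher the count was 58 of 547 with DMSO (10.6%) and 17 of 70 in the DHT pair (24.3%). For genes higher in the vehicle pair at an unadjusted p under 0.05 it was 33 of 203 (16.3%). All of these are matches of letters and do not show binding.

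E2F1, the founding E2F factor and itself an E2F target, had 1334 counts in the vehicle library and 1795 after doxycycline, or 82.5 and 101 CPM. Its log2 change of 0.30 ± 0.11 was not called in the vehicle pair (edgeR adjusted p = 1), and it rose in the mean of both experiments (0.36 ± 0.07, adjusted p = 0.012), though not without DMSO replicate 1 (0.0802), DMSO replicate 2 (0.0742) or DMSO and doxycycline replicate 1 (0.097). In the DHT pair it went from 46.3 to 71.7 CPM. Among the relatives of RB1, RBL1 (p107) had 901 and 1192 counts in its main row (0.27 ± 0.12), and RBL2 (p130) had 2437 and 2548 (−0.07 ± 0.10). RBL2 fell with DMSO (−0.53, edgeR adjusted p = 0.000217), while the difference between experiments was not called (adjusted p = 0.228). In all, 10 of the 14 rows for pocket proteins, E2F and DP factors lay above 0. The kinase CDK2, which drives S phase entry, had 1301 and 1729 counts (0.28 ± 0.11) and rose in the mean of both experiments (0.46, adjusted p = 0.00243). The CDK inhibitor CDKN1A had 1350 and 1660 counts (0.17 ± 0.11) and rose in that mean (0.46, adjusted p = 0.00175), with a log2 change of 0.76 in the DMSO groups. The medians in the vehicle pair were 0.13 for 10 G1 cyclins and CDKs and 0.17 for 7 CDK inhibitors.

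Genes of G2 and mitosis did not stand out in the vehicle pair. Of 56 such genes, 44 were above 0, their median was 0.07, and none reached an unadjusted p under 0.05 in either direction. CCNB2, a mitotic cyclin, had 1840 and 2279 counts (0.18 ± 0.11). CENPF, a kinetochore protein, had 4606 and 4844 (−0.06 ± 0.12), and ASPM, a spindle pole protein, had 1831 and 1866 (−0.10 ± 0.19). With DHT present, 3 days of doxycycline gave a median of 0.56 for the same list, and 20 of the 56 rose, where 98 of all genes rose (0.493%) and 21 fell (0.106%), together 0.598%. Both DHT libraries are separate from the vehicle pair. CENPF went from 1555 to 2411 counts there, a log2 change of 0.61 ± 0.12. In the test of the difference, no G2/M gene was called, and 45 of 56 were higher with DHT at an unadjusted p under 0.05, against 2.53% of all genes. Of all genes, 0 were called higher in that difference, 41 without either library of GSK2879552 alone, and 55 without all 4 that received the inhibitor. The levels before doxycycline differed: CENPF had 285 CPM in the vehicle library and 113 CPM in the DHT library, and reached 273 and 172 CPM with doxycycline.

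**Figure D3:**
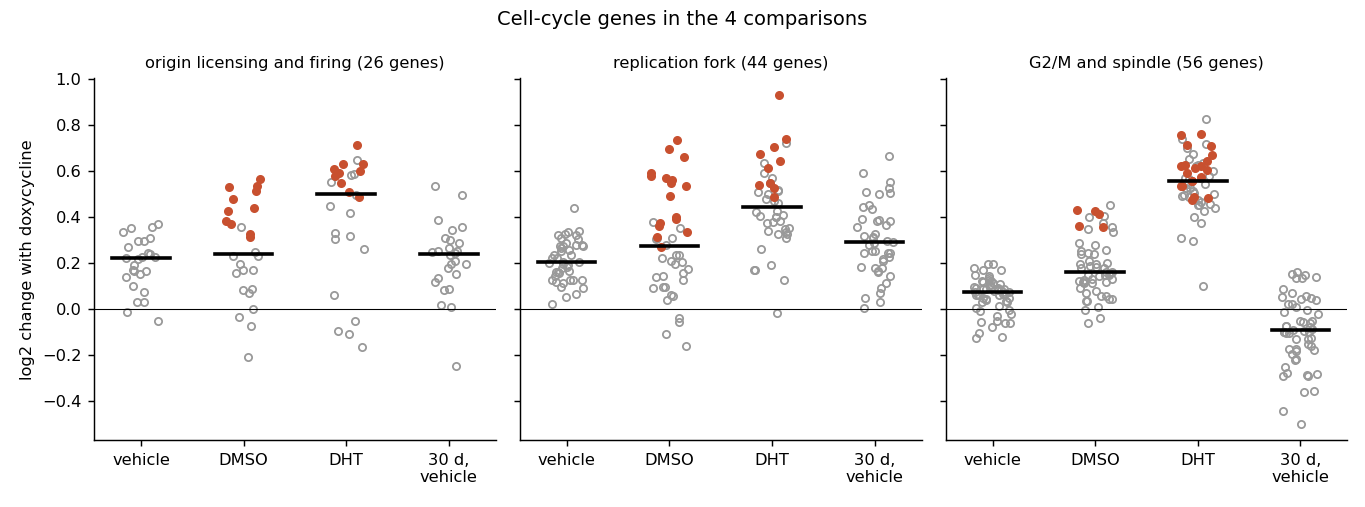
Log2 change with doxycycline (y axis) of each gene of 3 lists in the vehicle pair, the DMSO groups, the DHT pair and the 30-day library against the same vehicle library. Filled points were called in that comparison and bars are medians. In the vehicle column the medians are 0.22, 0.20 and 0.07 from left to right with no filled point, and the G2/M genes lie highest in the DHT column.

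After 30 days of doxycycline, compared with the same vehicle library and so not independent of the 3-day values, the licensing, fork and G2/M medians were 0.24, 0.29 and −0.09. In that comparison 13 genes were called (0.0653%). RB1 was at −2.92, MIR30A at 5.67 and STAMBP at −0.83. E2F1 was at 0.53.

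DNA repair and chromatin lists gave smaller values. Of 29 homologous recombination and Fanconi genes, 26 were above 0 with a median of 0.16. UBE2T, a ubiquitin-conjugating enzyme of the Fanconi pathway, had 1627 and 2115 counts (0.25 ± 0.11), and it rose in the mean of both experiments (0.36, adjusted p = 0.0183), though not without lane 2 of the first table (0.0522), DMSO replicate 1 (0.135), or DMSO and doxycycline replicate 1 (0.11) or 2 (0.0595). The 47 tested replication-dependent histone genes had a median of 0.06. Messages of these genes mostly lack a poly(A) tail, and the kits of both tables differ in their need for one. KDM1A, which encodes LSD1, had 2104 and 2248 counts, or 130 and 127 CPM (−0.04 ± 0.10). The 21 genes of LSD1, CoREST and partner proteins had a median of −0.03 with 8 above 0. MTA2, a subunit of the NuRD remodelling complex, had 3272 and 3901 counts (0.12 ± 0.10), and it fell by 0.61 on the log2 scale with DMSO. The difference was called (0.73, adjusted p = 0.00989), but not without any 1 of the 4 libraries with DMSO (0.062 to 0.116). The 16 genes of PRC2 and DNA methylation had a median of 0.12, with RBBP7 at 0.23 ± 0.09 (168 and 197 CPM).

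Androgen-regulated genes lay on both sides of 0, with no member called. The 47 androgen-induced genes had a median of 0.02, with 25 above and 21 below 0. At an unadjusted p under 0.05, 5 of the 47 were lower and 1 was higher, where 1.29% of all genes were lower and 2.15% higher. KLK3 had 58430 and 62924 counts, which after scaling for depth is a log2 change of −0.03 ± 0.07. TMPRSS2, an androgen-induced serine protease, had 7548 and 7096 counts (−0.22 ± 0.08), and it fell in the mean of both experiments (−0.34, adjusted p = 0.00175). NDRG1 had 3790 and 3539 counts (−0.23 ± 0.08), and it fell in that mean (−0.23, adjusted p = 0.0292), though not without lane 1 of the first table (0.0721) or without any 1 of 6 libraries of the second, those with DMSO or with GSK2879552 and doxycycline (0.0574 to 0.225). TRPM8, a cation channel of prostate cells, had 628 and 514 counts (−0.42 ± 0.13). The androgen-repressed list (19 genes) had a median of 0.11. Of the 12 luminal markers 10 lay below 0, with a median of −0.08, and 3 were lower and 0 higher at an unadjusted p under 0.05.

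Neuroendocrine markers, which mark a lineage that prostate tumours without RB1 can take on, were mostly at few counts. Of 27 in the table, 20 had fewer than 20 counts in both libraries and 7 were at 0 in both. INSM1, CHGB, NEUROD1 and FOXA2 were among the latter, where a count of 0 allows up to 3 counts. CHGA had 3 and 1 counts and SYP 21 and 25. CALCA had 4 and 15 counts and NCAM1 5 and 11. Markers with more counts gave DLL3 at 0.09 ± 0.19 and PEG10 at −0.07 ± 0.13, and STMN1 had 3553 and 4036 counts. The 11 tested markers had a median of 0.05, with 7 above and 4 below 0. No member was called.

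Stress and metabolic lists had medians near that of all genes. The 38 ATF4 targets of the amino acid stress response had a median of 0.05 in the vehicle pair, where none reached an unadjusted p under 0.05, and of 0.31 in the DMSO groups, where 23 rose and 4.11% of all genes did. ASNS, asparagine synthetase, had 6171 and 7406 counts (0.13 ± 0.09) here. For CHAC1, which degrades glutathione, the change was 0.06 ± 0.15 here and 1.17 with DMSO, and the difference was called (−1.12, adjusted p = 0.0114), but not without DMSO replicate 1 (0.108) or 2 (0.102) or DMSO and doxycycline replicate 1 (0.0643). Of 33 genes of hypoxia and glycolysis, 24 lay below 0 with a median of −0.08, and 5 were lower at an unadjusted p under 0.05, where 1.29% of all genes were. MXI1, a MYC antagonist, was at −0.34 ± 0.11 and ALDOC, an aldolase, at −0.26 ± 0.10. The medians were 0.02 for p53 targets (29 genes), 0.05 for ER chaperones (23), 0.02 for sterol synthesis (24), 0.01 for fatty acid synthesis (18), 0.04 for interferon-stimulated genes (49) and 0.02 for NF-kB targets (18). They were 0.04 for immediate early genes (26), 0.10 for the BCL2 family (28), 0.04 for polyamine metabolism (13) and −0.05 for adhesion and mesenchymal genes (24).

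The mitochondrial genome's 13 protein genes had a median of −0.07 here and of 0.60 in the DMSO groups. Here 3 were above and 10 below 0, from −0.61 to 0.57. In the DHT pair, of the same kit, the median was 0.11 with 12 of the 13 above 0. MT-CO2, a subunit of cytochrome c oxidase, had 2555 and 1894 counts (−0.56 ± 0.12). It was called in the difference between experiments (−0.93, adjusted p = 0.00488). These genes held 0.128% and 0.111% of counts in the 2 libraries, whereas they held 2.72% to 4.61% in the mRNA libraries, which limits how far both tables can be compared on them.

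**Figure D4:**
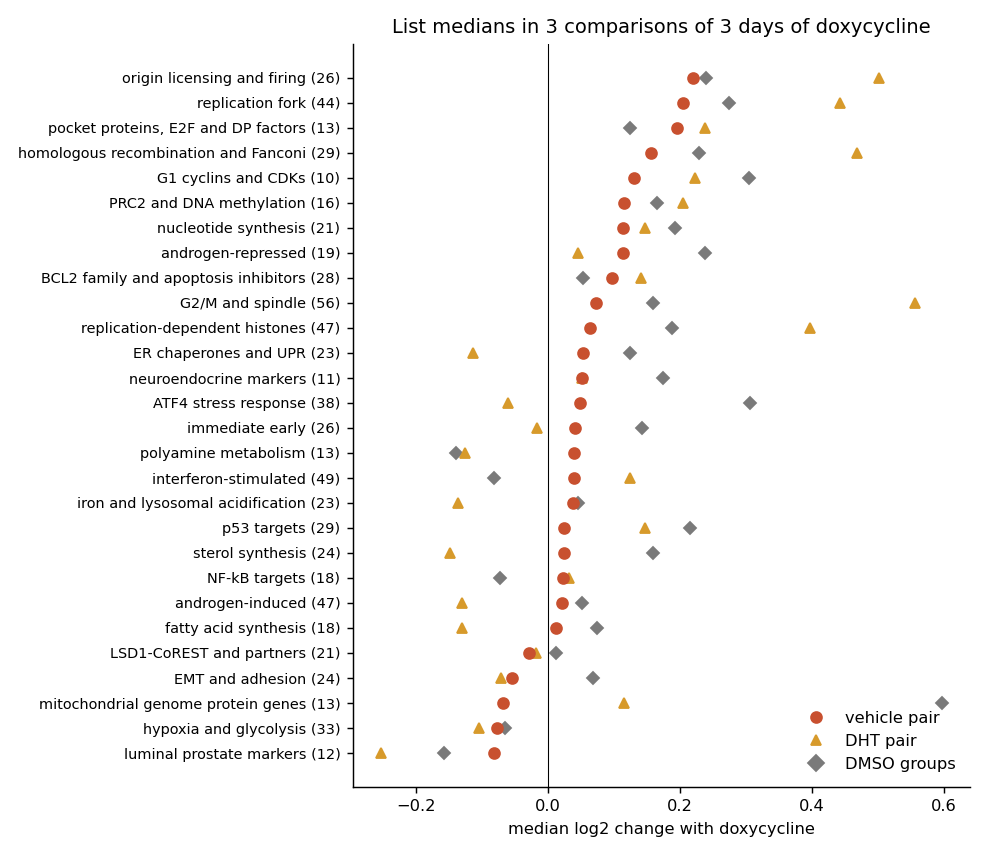
Median log2 change with doxycycline of each gene list (x axis) in the vehicle pair, the DHT pair and the DMSO groups, for lists with at least 10 tested genes, whose number is in brackets. Lists are ordered by the vehicle pair, whose medians run from −0.08 for luminal markers to 0.22 for licensing genes.

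Genes called with DMSO were followed in the vehicle pair. With DMSO, 817 genes rose and 592 fell (4.11% and 2.98% of all genes, together 7.08%). Without any 1 of these 4 libraries 153 to 290 rose and 116 to 193 fell, and without either library of GSK2879552 alone 1714 rose and 1465 or 1466 fell. Of the 817 risers, 590 (72.2%) were above 0 in the vehicle pair, where 57.4% of all genes were, and their median was 0.45 with DMSO and 0.09 here. Of the 592 fallers, 324 (54.7%) were below 0, where 41.5% of all genes were, with medians of −0.40 and −0.02. Of the 98 genes that rose in the DHT pair, 90 were above 0 in the vehicle pair, with medians of 0.63 and 0.14. Of the 21 that fell there, 17 were below 0, with medians of −0.53 and −0.16. The vehicle pair thus had smaller values for each of these sets, which were picked as extreme in the other comparison.

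The difference between the vehicle and DMSO responses was itself called for 44 genes (0.221%), 30 higher (0.151%) and 14 lower (0.0704%) in the vehicle pair. It was called for 10 to 13 and 5 to 13 genes without any 1 of the 4 libraries with DMSO, and for 203 or 204 and 217 without either library of GSK2879552 alone. ODC1, the rate-limiting enzyme of polyamine synthesis, had 1080 and 1173 CPM in the vehicle and doxycycline libraries (0.12 ± 0.08). With DMSO it was 1441 and 1439 CPM without and 627 and 637 CPM with doxycycline (−1.19), and the difference of 1.31 was called (adjusted p = 8.51e-07). LAP3, a leucine aminopeptidase, was at 0.13 here and −1.12 with DMSO, and PPIC, a cyclophilin, at 0.00 and −1.38. In the other direction, HIST1H2BK was at 0.06 and 0.98. DMSO, the serum and the kit differ between these tables, and the time of the experiment may differ too. These cannot be told apart.

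**Figure D5:**
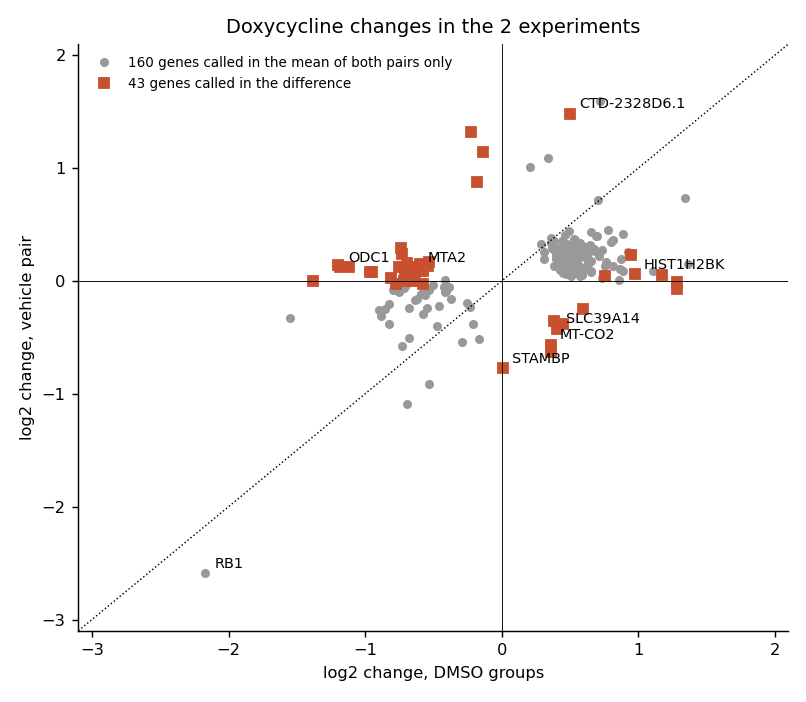
Log2 change with doxycycline in the vehicle pair (y axis) against that in the DMSO groups (x axis) for 160 genes called in the mean of both and not in their difference (circles) and 43 genes called in the difference (squares). The dotted line marks equal change, and MIR30A lies outside the axes. RB1 lies near the line, and most squares lie near 0 on the vertical axis.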

How the data were processed

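The RNA-seq gene counts were deposited by the authors as 2 tables of whole-number counts per gene (57773 genes), one for the DHT experiment and one for the GSK2879552 experiment. Per the submitters' processing notes, FastQC 0.11.9, STAR 2.7.2 and featureCounts 1.6.4 were used with hg19 (GRCh37). The strand setting and annotation are not given in the sources used here. Without strand, antisense and overlapping genes cannot be told apart. The columns of the DHT table are lanes 1 and 2 of a library and were summed. No column was left unmapped.

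The 14 C4-2 libraries were fitted together in edgeR 4.0.16 (R 4.3.3, limma 3.58.1): filterByExpr (19898 genes kept), TMM within each table, 1 mean per group, and the quasi-likelihood F test with Benjamini-Hochberg adjustment. The 4 residual degrees of freedom come from the GSK2879552 table. The SE of a log2 change was obtained as its absolute value over the root of its F statistic. Contrasts were doxycycline in the vehicle pair, the DHT pair and the DMSO groups, 30 days against vehicle, the mean of the vehicle and DMSO responses, and their difference and that with DHT. Ratios of 2 libraries used a prior count of 2 in the plot, at least 100 counts in the pair and a limit of 1.5-fold. Their 95% intervals are Clopper-Pearson and cover counting error only.

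On simulated data for the vehicle comparison (19898 genes, 50 changed at each fold), 58% were called at 1.5-fold, 94% at 2-fold and 100% at 3-fold and 5-fold, with 15 false calls. These counts were drawn with the same dispersion for every gene and library, and only genes with at least 50 expected counts were changed. The lone libraries were thus made to vary like the replicated ones, which the real data cannot check. The shares called hold for that setting only.

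Members and gene lists were chosen with earlier results of these data known. Genes were named by rule: RB1, E2F1, KLK3 and KDM1A, the largest called changes, the largest uncalled ratios with at least 500 counts, up to 4 genes per list and direction with the smallest p, and up to 6 called genes per direction of a difference. Genes that break it are said to be picked after their values were seen, as are SLC30A4, SETD7 and the examples given for gene groups with larger p-values. Alternatives were DESeq2 1.42.0, its size factors, no count filter, other fold and count limits, a replicate block, an additive fit, and leaving out single libraries, lanes or the GSK2879552 groups. Leaving out 6 rows with ribosomal RNA pseudogenes was added after seeing the data. Coordinates are of RefSeq's GRCh38.p14 and were not converted from the authors' build. Some genes that the rule names are not reported here. Gene lengths were not used, so levels are not compared between genes.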

Additional observations from a re-analysis of the deposited data

Results flagged for a closer look

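Each gene below was called by edgeR in a test of the difference between 2 doxycycline responses. The vehicle response minus the DMSO response was positive for AC079949.1 (1.55), PPIC (1.38), GS1-358P8.4 (1.34), ODC1 (1.31), RNA5-8SP2 (1.28), LAP3 (1.24), AC010970.2 (1.06), CTD-2328D6.1 (0.98) and MTA2 (0.73), in log2 units. It was negative for HIST1H2BJ (−1.36), MESDC1 (−1.29), CHAC1 (−1.12), GOLGA2P5 (−0.99), MT-CO2 (−0.93), HIST1H2BK (−0.92), DUSP1 (−0.85), SLC39A14 (−0.82) and STAMBP (−0.78). The call on this difference was lost in 9 of the 16 alternatives run for GOLGA2P5, 8 of 16 for DUSP1 and for STAMBP, 5 of 16 for MESDC1 and for MTA2, 4 of 16 for CHAC1, 7 of 14 for RNA5-8SP2 and 4 of 15 for PPIC. Without lane 2 of the first table the adjusted p was 0.378 for GOLGA2P5, and without lane 1 it was 0.214 for DUSP1.

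For most of these the change was in the DMSO groups. The vehicle and DMSO responses were 0.14 and −1.20 for GS1-358P8.4, −0.07 and 1.29 for HIST1H2BJ, −0.01 and 1.28 for MESDC1, and −0.25 and 0.60 for DUSP1, an immediate early phosphatase. GOLGA2P5, a pseudogene by its name that may share reads with GOLGA2, was at −0.63 and 0.36. STAMBP and the 4 ribosomal or neighbouring rows are the cases in which the vehicle pair was called.

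The DHT response minus the vehicle response was called for CTD-2328D6.1 (−2.07), AC079949.1 (−1.77), AL161626.1 (−1.43) and AC010970.2 (−1.40). That call was lost in 2 of 15 alternatives for AL161626.1. Their shares of counts in each library are given with the results, and the part of ribosomal RNA removal in them was not tested. No group held enough libraries for a check of single outlying libraries.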

How the results depend on the processing

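RB1 and MIR30A kept their direction and their call in the vehicle comparison under every alternative that was run on them. With no count filter, the vehicle comparison had 6 falls, the difference between experiments 63 rises and 74 falls, the mean of both 274 and 117, and the difference with DHT 9 rises. DESeq2 gave 393 rises and 294 falls with DMSO, 22 falls in the difference and 74 rises in the mean. Without the GSK2879552 groups there were 8 vehicle falls, 1967 and 1512 calls with DMSO, 231 and 263 in the difference, 946 and 437 in the mean, and 55 and 14 in the difference with DHT. An additive fit over the DHT table alone called 97 rises and 37 falls in the vehicle comparison, where CTD-2328D6.1 (0.50), AC079949.1 (0.44), AL161626.1 (0.26) and AC010970.2 (0.15) were not called. That fit assumes equal responses with and without DHT. Without the 6 ribosomal or neighbouring rows, 2 vehicle rises and 0 falls in the difference with DHT were left.

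Replicate numbers of the GSK2879552 table did not pair the libraries: correlations of same-numbered deviations ran from −0.222 to 0.08. With the replicate number as a block, the vehicle comparison had 1 fall (STAMBP was not called, adjusted p = 0.068, nor was the rise of RNA5-8SP2, 0.116), the DMSO comparison 540 and 347 calls, the difference 14 and 6 (STAMBP 0.0999), and the mean 49 and 19.

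Leaving out single libraries or lanes gave 1 to 9 vehicle falls, 153 to 1714 rises and 116 to 1466 falls with DMSO, 10 to 204 and 5 to 217 calls in the difference, 21 to 795 and 14 to 391 in the mean, and 0 to 41 and 3 to 8 in the difference with DHT. By the 2-library ratio there were 29 falls with DESeq2 size factors and with total counts, 165 rises and 109 falls with at least 50 counts, 6 and 3 with at least 500 counts, and 7 and 1 past 2-fold. A single lane gave 39 to 50 rises and 22 to 30 falls. With members of at least 100 counts, the median was 0.13 for basal markers (1 gene) and 0.35 for immune and endothelial markers, in place of 2.56 and −0.42 over few counts, so the sign of the latter changed.

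Among the named genes, the sign changed for 5 uncalled vehicle values. Without lane 1 and without lane 2, GS1-358P8.4 was at 0.29 and −0.0082, MESDC1 at −0.15 and 0.15, and PPIC at −0.12 and 0.11. In the additive fit CHAC1 was at −0.0099, HIST1H2BJ at 0.15, MESDC1 at 0.14 and PPIC at 0.050.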
